A study of Homo sapiens with 12 samples.

Results

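ICAM1, SDC4, CD83, C3, SAA1, LCN2, SOD2, IER3, TNFAIP2 and IL32 are NFκB target genes whose products carry out inflammatory and acute-phase functions: adhesion, complement activation, iron withholding, defence against oxidants and cytokine signaling. They were chosen by gene symbol, and each of the 10 symbols was found once among the 12451 entries of the count table. Genes were tested where RPKM (assigned reads per kilobase of exon, scaled to library depth) was at least 1 in at least 3 libraries, which left 11303 genes. All 10 passed, with an RPKM of at least 1 in 12 of 12 libraries, so none depended on the group in which it was high.

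TNFα binds its receptor at the cell surface and activates IκB kinases, which mark IκB proteins for degradation. The released NFκB dimers, typically p65 with p50, enter the nucleus and bind κB sites near genes such as those listed above, and part of the induced products (IκBα, A20) shut the signal off again. ERβ, encoded by ESR2, is a nuclear receptor that estradiol activates, and it can bind estrogen response elements or act at sites held by other factors, NFκB among them. In epithelial and carcinoma cells this program recruits leukocytes and is part of the acute-phase response.

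The RNA-seq libraries came from MDA-MB-231-ERβ, a triple negative breast cancer (TNBC) line engineered to express full-length ERβ under control of doxycycline (dox). The 12 libraries formed 4 groups of 3 dishes: vehicle (ethanol), TNFα, E2 (estradiol) and E2+ TNFα, with E2 at 1 nM or vehicle for 5 days and TNFα at 20 ng/ml for the last 3 h. The cells of every group were grown in charcoal-stripped serum with dox to induce ERβ. For E2+ TNFα the treatment label omits dox, which is named in the other groups' labels, and the study's methods are the source for it. Thus no group lacked the receptor, and the E2 comparisons concern ligand on an overexpressed ERβ in 1 engineered line. The comparisons address whether E2 alters the response of NFκB target genes to TNFα.

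Assigned reads came to 7.65 to 39.9 M per library (M, mega), and the E2 libraries were the shallowest, yet no count of any of the 10 genes was below 118. Each treatment check was higher with its treatment than without it, but TNF also differed with E2. TNF averaged 0.317 CPM (TMM-normalized counts scaled to a fixed library size) in vehicle, 36.7 in TNFα, 1.24 in E2 and 8.76 in E2+ TNFα libraries. It was thus 4.20-fold lower with E2+ TNFα than with TNFα alone. GREB1, an estrogen-induced gene, averaged 3.44 CPM in vehicle, 4.12 in TNFα, 51.6 in E2 and 52.8 in E2+ TNFα libraries. ESR2 averaged 473 CPM in vehicle, 255 in TNFα, 306 in E2 and 448 in E2+ TNFα libraries. Of the markers of the line, VIM, AXL, MSN and CD44 were high in all groups, and ZEB1 averaged 23.3 CPM in vehicle against 1.19 to 2.72 CPM elsewhere. Of 6 luminal epithelial markers, ESR1 and PGR were not in the table, ERBB2 (93.9 to 108 CPM by group mean), GATA3 (4.69 to 13.01 CPM) and EPCAM (8.35 to 12.7 CPM) were measured in all groups, and CDH1, which encodes E-cadherin, averaged 3.15 CPM in vehicle and 1.90 CPM with TNFα against 41.05 CPM with E2 and 40.7 CPM with E2+ TNFα. Of the leukocyte and endothelial markers PTPRC, CD3E, CD14, ITGAM, PECAM1, CDH5 and VWF, CD14 was the 1 in the table, at 0.652 to 1.48 CPM by group mean. The part of the shifts of ZEB1 and CDH1 in the results below was not tested. The 3 vehicle libraries stood apart, with Spearman correlations across genes of 0.706 to 0.863 with other libraries, where libraries of the other 3 groups correlated at 0.928 to 0.989 between groups. The study's methods name a batch correction but do not state which libraries formed a batch. Vehicle treatment and any batch of those 3 libraries cannot be told apart, and comparisons between the other groups are therefore given first.

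Where TNFα acts on these genes, κB sites are the DNA letters of interest, so the promoters were searched before levels were compared. RefSeq windows of 300 bases (GRCh38.p14, 250 bases before each annotated start) were given for 7 of the 10 genes, and none was given for C3, SAA1 or IER3. The κB form GGNNNTTCC, read on both strands, occurred in 6 of the 12 windows of these 7 genes (1 or more windows of ICAM1, SDC4, CD83, LCN2, TNFAIP2 and IL32), compared with 20.1% of all 35116 windows in the table. SOD2 had no match in any of its 4 windows, which says only that these letters are absent there. The matches are printed in capitals with 10 flanking bases on each side, 5′ to 3′ on the strand of the gene. One match per gene is shown for the genes that TNFα altered most, and LCN2 is added as the gene that E2 lowered most.

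TNFAIP2 (chr14:103123354-103123382, plus strand): ctccgcccgcGGGTTTTCCgcggttgcgg
ICAM1 (chr19:10270924-10270952, plus strand): gctttagcttGGAAATTCCggagctgaag
SDC4 (chr20:45348502-45348530, minus strand): gcttccactgGGGAATTCCgggcggggtg
CD83 (chr6:14117712-14117740, plus strand): tggcgcgcagGGAAGTTCCcgaacgcgcg
LCN2 (chr9:128149268-128149296, plus strand): cagcactccgGGAATGTCCctcactctcc

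These matches began 97 bases (TNFAIP2), 186 bases (ICAM1), 96 bases (SDC4), 50 bases (CD83) and 175 bases (LCN2) before the annotated start of their RefSeq window. For TNFAIP2, ICAM1 and CD83 that start (103123461, 10271120 and 14117772) and the match lie inside the span of the counted gene printed below. The other CD83 window, at the start of that span (14117256), had 0 matches. The ICAM1 and CD83 matches read as the κB form on both strands, that of LCN2 on the opposite strand only, and those of TNFAIP2 and SDC4 on the strand shown. The letters GGTCA, 1 arm of an estrogen response element, occurred in 7 of the 12 windows (all genes but CD83) and in 37.4% of all windows, while the complete palindromic element occurred in 0 of the 12 and in 0.0570% of all windows. A match is a description of the sequence, and binding was not measured in these files.

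The surface proteins were lowest in vehicle and highest with E2+ TNFα by group mean. ICAM1, an adhesion molecule that leukocyte integrins bind (chr19:10270841-10286615, hg38, 7 exons), was at 366, 364 and 339 CPM in the vehicle libraries, 1384, 1342 and 1324 CPM with TNFα, 608, 828 and 747 CPM with E2, and 1745, 1549.9 and 2072 CPM with E2+ TNFα. The 4 groups did not overlap, and their order was vehicle, E2, TNFα, E2+ TNFα. SDC4, a heparan sulfate proteoglycan of the cell surface (chr20:45325285-45348424, 5 exons), was at 251, 256 and 259 CPM in vehicle, 1845, 1888 and 2086 CPM with TNFα, 1179.7, 1161 and 1223 CPM with E2, and 2299.7, 1924 and 2164 CPM with E2+ TNFα. Its order was the same, except that the TNFα and E2+ TNFα libraries overlapped. CD83, an immunoglobulin-like membrane protein best known from mature dendritic cells (chr6:14117256-14136918, 6 exons), was the least abundant of the 10 genes in vehicle, at 12.9, 12.2 and 13.1 CPM. It was at 28.3, 40.1 and 30.6 CPM with TNFα and at 33.7, 40.3 and 43.3 CPM with E2, which overlapped, and at 117, 103 and 107 CPM with E2+ TNFα, above every other library.

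The secreted acute-phase proteins diverged from one another. C3, the central component of complement (chr19:6677835-6720682, minus strand, 41 exons), was at 249.7, 226 and 208 CPM in vehicle, 691, 621 and 646 CPM with TNFα, 790.1, 1267 and 1233 CPM with E2, and 1165, 1110.4 and 1479 CPM with E2+ TNFα. Every library with E2 was above every library without it, the E2 and E2+ TNFα libraries overlapped, and E2 replicate 1 was the lowest of the 6. SAA1, an apolipoprotein of the acute phase (chr11:18266261-18269977, 4 exons), was at 529, 466 and 503 CPM in vehicle, 955, 978 and 1041 CPM with TNFα, 1692, 1875 and 1457 CPM with E2, and 1244, 1125 and 1383 CPM with E2+ TNFα. It was the only member of the 10 whose E2+ TNFα libraries all lay below its E2 libraries. LCN2, a lipocalin that binds bacterial siderophores and so withholds iron (chr9:128149453-128153455, 7 exons), was at 104, 88.3 and 89.8 CPM in vehicle and 121, 119 and 162 CPM with TNFα, but at 15.7, 18.8 and 12.2 CPM with E2 and 13.5, 11.4 and 17.2 CPM with E2+ TNFα. The groups with and without E2 were far apart, and within the E2-treated cells the libraries with and without TNFα overlapped.

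The products that act inside the cell and the cytokine IL32 were likewise divided. SOD2, the mitochondrial manganese superoxide dismutase (chr6:159679116-159693321, minus strand, 6 exons), was at 104, 106 and 112 CPM in vehicle, 112, 122 and 124 CPM with TNFα, 38.2, 24.9 and 33.5 CPM with E2, and 68.4, 72.4 and 58.8 CPM with E2+ TNFα. All 6 libraries with E2 were below the 6 without, and among them those with TNFα were the higher. IER3, a stress-induced early gene with a role in apoptosis (chr6:30743199-30744550, minus strand, 2 exons), was at 1322, 1119 and 1212 CPM in vehicle, 2819, 2562 and 2993 CPM with TNFα, 1069, 1154 and 964 CPM with E2, and 1263, 1119 and 1327 CPM with E2+ TNFα. Only the TNFα libraries stood apart, while E2+ TNFα overlapped both vehicle and E2. TNFAIP2, a TNFα-induced protein that promotes membrane protrusions (chr14:103121147-103137439, 14 exons), was at 132, 126 and 126 CPM in vehicle, 1607, 1588 and 1633 CPM with TNFα, 381, 467 and 407 CPM with E2, and 1654, 1583 and 2086 CPM with E2+ TNFα. The groups with TNFα overlapped each other, and both were above E2, which was above vehicle. IL32, a proinflammatory cytokine (chr16:3065312-3069667, 7 exons), was at 111, 99.2 and 108 CPM in vehicle, 104, 95.7 and 95.3 CPM with TNFα, 188, 210.0 and 156 CPM with E2, and 169, 159 and 208 CPM with E2+ TNFα. At these levels IL32 split by E2 alone, since vehicle overlapped TNFα and E2 overlapped E2+ TNFα. Its differences from vehicle changed under other processing, as given below.

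**Figure D1:**
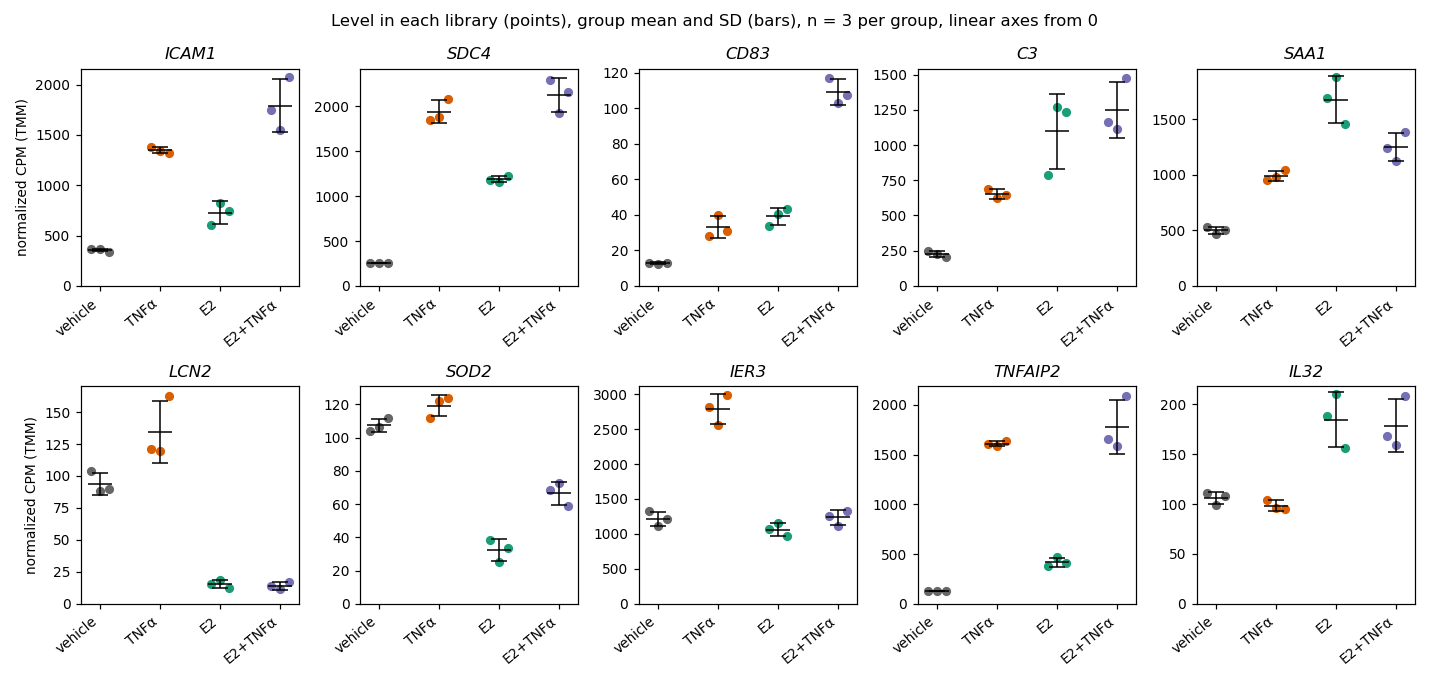
Level of each of the 10 genes (normalized CPM, linear axes from 0) in the 12 libraries, with points for libraries and bars for the mean and SD of each group (n = 3). LCN2 and SOD2 were lower in all 6 libraries with E2, CD83 was highest with E2+ TNFα (103 to 117 CPM), and IER3 was highest with TNFα alone (2562 to 2993 CPM).

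Levels of different genes were compared as RPKM, which accounts for exon length. IER3 (982 ± 82.0 RPKM, SD, n = 3) and SAA1 (737 ± 46.5 RPKM) led in vehicle, followed by LCN2 at 114 ± 10.5, ICAM1 at 109.7 ± 4.50 and SDC4 at 97.6 ± 1.54 RPKM. LCN2 and ICAM1, neighbours in that order, differed by less than the SD of LCN2. CD83 was last at 5.04 ± 0.184 RPKM, below TNFAIP2 at 24.2 ± 0.626 RPKM. In E2+ TNFα libraries the order was led by SAA1 (1845 ± 190.5 RPKM), IER3 (997 ± 86.0 RPKM) and SDC4 (814 ± 72.7 RPKM), and LCN2 was last at 17.1 ± 3.56 RPKM. CD83 at 43.2 ± 2.87 RPKM and SOD2 at 37.5 ± 3.94 RPKM were neighbours above it, whose intervals of mean ± SD overlapped. SAA1 carries the most uncertainty in counting, because it shares 97.7% identity with SAA2 over 616 bases, and reads could be split between the copies. A further entry, SAA2-SAA4, shares 99.6% identity with SAA1 over 235 bases, and its reads were not counted with SAA1 in any alternative. SAA2 averaged 77.1 CPM in vehicle and 142 to 248 CPM in the other groups, while SAA4, another relative, was at no more than 0.432 CPM on average. Long noncoding transcripts on the opposite strand share exon sequence with ICAM1, IER3 and TNFAIP2 in GENCODE 44 but are not entries of the table, and whether the counting used strand is not given in the sources used here.

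The effect of TNFα in cells that had received E2 is the comparison of E2+ TNFα with E2. The vehicle libraries are not compared in it, but they share its normalization and estimate of spread. TNFAIP2, CD83, ICAM1, SOD2 and SDC4 rose, by 4.24-, 2.79-, 2.46-, 2.05- and 1.79-fold. C3, IER3, LCN2 and IL32 did not pass the test. A gene was called significantly regulated when its log2 fold change reached 1.5 in either direction with p under 0.05 and an adjusted p of at most 0.1, and it passed the test of any size at an adjusted p of at most 0.1 alone. TNFAIP2 was the 1 member called (log2 fold change 2.09 ± 0.13, SE, adjusted p = 7.12e-08), and 0.407% of all tested genes were called (0.389% upward, 0.0177% downward). Of the 10 genes, 6 passed at any size against a background of 6.00%, 5 of them upward (background 2.65%) and SAA1 downward (3.34%). CD83 was just short of the call (1.48 ± 0.15, adjusted p = 2.83e-05), ICAM1 changed by 1.30 ± 0.13 (adjusted p = 4.19e-05), SOD2 by 1.03 ± 0.14 (adjusted p = 0.00101) and SDC4 by 0.84 ± 0.11 (adjusted p = 0.000374). CD83 was called at 1.56 without E2 replicate 3, at 1.52 without E2+ TNFα replicate 2, and at 1.52 when the vehicle libraries were left out of the fit. It was also called at 1.60 with library size scaling alone, and at 1.56 with GC content and length trends removed, with or without a replicate block. In bulk RNA, a change in the share of cells that express a gene and a change in RNA per cell cannot be told apart.

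The other members gave smaller differences with TNFα in E2-treated cells. C3 changed by 0.19 on the log2 scale (95% interval -0.16 to 0.54), IER3 by 0.22 (-0.03 to 0.47), LCN2 by -0.13 (-0.54 to 0.27) and IL32 by -0.05 (-0.33 to 0.24). Each of these intervals included 0, and the highest bound was 0.54. IER3 passed as higher at any size, however, at 0.51 with GC content and length trends removed (adjusted p = 0.000340), 0.36 with a factor estimated from housekeeping genes removed (RUV; adjusted p = 0.0356) and 0.35 with library size scaling alone (adjusted p = 0.0636), and IL32 passed at 0.24 with the trends removed (adjusted p = 0.0304). SAA1, the acute-phase apolipoprotein, was 1.34-fold lower (log2 fold change -0.42 ± 0.12, adjusted p = 0.0755). Its change was -0.10 with the trends removed (adjusted p = 0.572), its adjusted p was 0.179 without the vehicle libraries in the fit, and it exceeded 0.1 in 10 of the 12 fits that left out 1 library, reaching 0.265 without E2+ TNFα replicate 2.

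The effect of E2 in cells stimulated with TNFα is the comparison of E2+ TNFα with TNFα. LCN2 was 9.56-fold lower with E2, IER3 2.26-fold lower and SOD2 1.79-fold lower, whereas CD83 was 3.30-fold higher, C3 1.92-fold higher and IL32 1.82-fold higher. TNFAIP2 and SDC4, which TNFα raised most in the absence of E2, were within 1.10-fold of their TNFα level. LCN2 (log2 fold change -3.26 ± 0.19, adjusted p = 5.03e-09) and CD83 (1.72 ± 0.14, adjusted p = 2.47e-07) were the 2 members called, against 5.56% of all tested genes (3.55% upward, 2.01% downward). At any size, 8 of 10 passed, where the background was 45.3%, with 5 upward (background 24.4%) and 3 downward (21.0%). The changes of IER3 (-1.17 ± 0.12, adjusted p = 2.02e-06), C3 (0.94 ± 0.17, adjusted p = 0.000421), IL32 (0.86 ± 0.13, adjusted p = 0.000122) and SOD2 (-0.84 ± 0.14, adjusted p = 0.000228) were below the size threshold, and so was that of ICAM1 (0.41 ± 0.13, adjusted p = 0.0253). For TNFAIP2 the difference was 0.14 (95% interval -0.12 to 0.40) and for SDC4 0.13 (-0.09 to 0.36), neither of which passed the test. With GC and length trends removed both passed at any size, TNFAIP2 at 0.25 (adjusted p = 0.0112) and SDC4 at 0.16 (adjusted p = 0.0744). SAA1 was higher by 0.34 ± 0.12 (adjusted p = 0.0413). Its adjusted p was 0.295 when SAA2 reads were counted with it, 0.115 with the trends removed, 0.129 without TNFα replicate 1, 0.120 without TNFα replicate 2 and 0.115 without E2+ TNFα replicate 3.

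**Figure D2:**
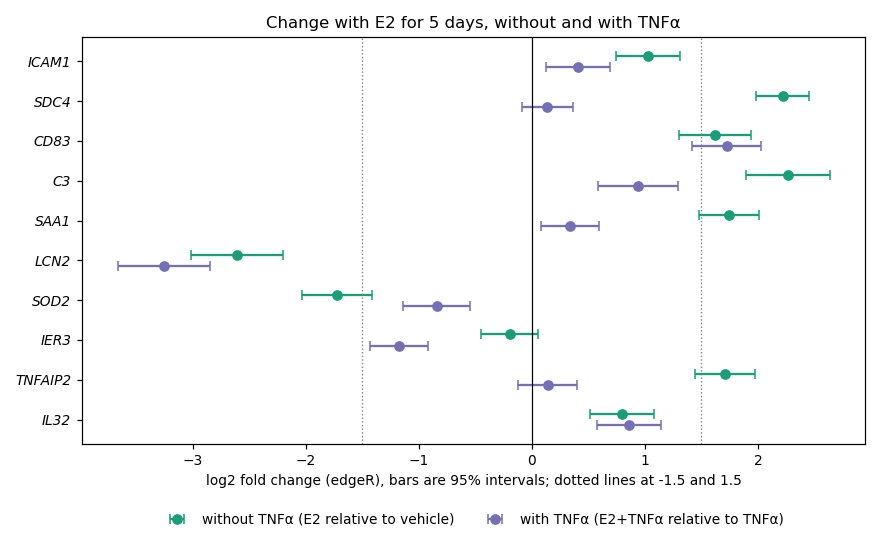
Log2 fold change of each gene with E2 for 5 days, in the absence of TNFα (E2 relative to vehicle, green) and in its presence (E2+ TNFα relative to TNFα, purple), from edgeR with 95% intervals; the dotted lines mark -1.5 and 1.5. LCN2 lies near -3 in both, CD83 above 1.5 in both, and SDC4 and TNFAIP2 are near 0 only in the presence of TNFα (0.13 and 0.14).

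E2 and TNFα were also compared with each other. LCN2 was 8.71-fold lower with E2 than with TNFα, TNFAIP2 3.85-fold lower, SOD2 3.67-fold lower and IER3 2.63-fold lower, and C3, SAA1 and IL32 were 1.68-, 1.69- and 1.87-fold higher. LCN2 (log2 fold change -3.12 ± 0.20), TNFAIP2 (-1.94 ± 0.13) and SOD2 (-1.87 ± 0.15) were called, with a largest adjusted p of 9.61e-08, against 5.97% of all tested genes (3.49% higher with E2, 2.48% lower). At any size, 9 of 10 passed, where the background was 46.7%, with 6 lower with E2 (background 21.8%) and 3 higher (24.9%). IER3 (-1.39 ± 0.12, adjusted p = 3.16e-07) was called with library size scaling alone (-1.56), with RUV (-1.53), with GC and length trends removed (-1.66) and without E2 replicate 2 (-1.502). ICAM1 was 1.86-fold lower with E2 (-0.89 ± 0.13, adjusted p = 8.19e-05) and SDC4 1.63-fold lower (-0.71 ± 0.11, adjusted p = 8.95e-05). CD83 did not pass (0.24, 95% interval -0.07 to 0.55), with an adjusted p of 0.0522 and a difference of 0.38 without TNFα replicate 2. CD83 averaged 39.1 ± 4.91 CPM with E2 and 33.0 ± 6.24 CPM with TNFα (SD, n = 3), compared with 109.1 ± 7.23 CPM with E2+ TNFα.

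Relative to vehicle, TNFα alone raised 8 of the 10 genes, although the direction of LCN2 turned in other settings. TNFAIP2 was 12.6-fold higher, SDC4 7.60-fold, ICAM1 3.79-fold and C3 2.86-fold, and these 4 were called, against 26.7% of all tested genes (6.64% higher, 20.0% lower). CD83 (2.60-fold), IER3 (2.29-fold), SAA1 (1.99-fold) and LCN2 (1.43-fold) passed at any size, as 81.9% of all tested genes did (40.3% higher, 41.6% lower). SOD2 (log2 fold change 0.15 ± 0.14, adjusted p = 0.318) and IL32 (-0.11 ± 0.13, adjusted p = 0.452) did not pass. Because so many genes passed wherever the vehicle libraries were used, values under other processing are given beside the changes. With RUV, TNFAIP2 remained higher by 3.04 and SDC4 by 2.80 on the log2 scale, compared with 3.65 and 2.93, ICAM1 by 1.27 compared with 1.92, and C3 by 0.75 compared with 1.52. SAA1 no longer passed with RUV (0.43, adjusted p = 0.135, compared with 0.99), and IER3 was higher by 0.66 with RUV and 0.40 with GC and length trends removed, compared with 1.20. LCN2 turned from 0.52 to -0.60 with RUV (adjusted p = 0.152). It passed as lower, at -0.24, when trends with GC content and length were removed (adjusted p = 0.0669). SOD2 passed as higher with RUV (0.87, adjusted p = 0.0171) and with the trends removed (0.72, adjusted p = 1.73e-07), and IL32 as lower (-0.79, adjusted p = 0.0155, and -0.89, adjusted p = 6.66e-09). The call of C3 was also lost without vehicle replicate 3 (1.45), TNFα replicate 1 (1.47), E2 replicate 1 (1.49) or E2 replicate 3 (1.49), and SOD2 passed without E2 replicate 2 (0.24, adjusted p = 0.0623).

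**Figure D3:**
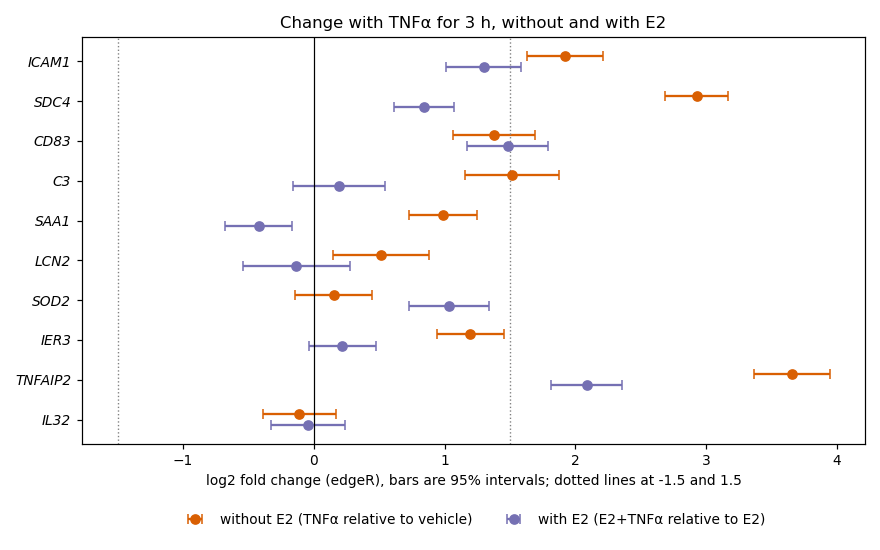
Log2 fold change of each gene with TNFα for 3 h, without E2 (TNFα relative to vehicle, orange) and with E2 (E2+ TNFα relative to E2, purple), from edgeR with 95% intervals; the dotted lines mark -1.5 and 1.5. In this fit CD83 and IL32 sit at like values in both, SOD2 passes as higher only with E2 (1.03), and SDC4 moves from 2.93 without E2 to 0.84 with it. The patterns of SOD2 and IL32 depended on processing. With GC and length trends removed, TNFα without E2 gave 0.72 for SOD2 and -0.89 for IL32.

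E2 alone, relative to vehicle, changed members in both directions. C3 was 4.80-fold higher, SDC4 4.65-fold, SAA1 3.35-fold, TNFAIP2 3.27-fold and CD83 3.07-fold, while LCN2 was 6.09-fold and SOD2 3.30-fold lower. These 7 were called, against 30.5% of all tested genes (9.87% higher, 20.6% lower). ICAM1 (2.04-fold higher) and IL32 (1.73-fold higher) passed at any size, as did 81.8% of all tested genes (40.1% higher, 41.7% lower), and IER3 did not (log2 fold change -0.20 ± 0.12, adjusted p = 0.141). With RUV, LCN2 (-3.999), SDC4 (2.05) and CD83 (1.72) remained called, C3 changed by 1.29, SAA1 by 1.04, TNFAIP2 by 0.93, SOD2 by -0.83, and ICAM1, which no longer passed, by 0.19 (adjusted p = 0.628). IL32 turned from 0.79 to -0.07 with RUV (adjusted p = 0.870), and it passed as lower with GC and length trends removed (-0.25, adjusted p = 0.00183). With GC and length trends removed, SOD2 (-1.27), SAA1 (0.88) and TNFAIP2 (1.12) were no longer called. CD83 was at 1.49, short of the call, without E2 replicate 3. IER3 passed as lower at any size with the trends removed (-1.26, adjusted p = 4.43e-10), with library size scaling alone (-0.56, adjusted p = 7.05e-05), with RUV (-0.87, adjusted p = 0.0192), and without vehicle replicate 2 (-0.28, adjusted p = 0.0770), TNFα replicate 2 (-0.23, adjusted p = 0.0980) or E2 replicate 2 (-0.22, adjusted p = 0.0919).

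E2+ TNFα relative to vehicle combined these patterns. TNFAIP2 was 13.9-fold higher, CD83 8.57-fold, SDC4 8.34-fold, C3 5.48-fold and ICAM1 5.02-fold, and LCN2 was 6.68-fold lower. These 6 were called, compared with 25.1% of all tested genes (7.52% higher, 17.6% lower), and each alternative run also called 6. SAA1 (log2 fold change 1.32 ± 0.12), IL32 (0.75 ± 0.13) and SOD2 (-0.69 ± 0.14) passed at any size only, as 80.6% of all tested genes did (39.1% higher, 41.5% lower). IER3 did not pass relative to vehicle (0.02, 95% interval -0.23 to 0.28, adjusted p = 0.874), but it passed as lower with GC and length trends removed (-0.75, adjusted p = 1.23e-07), RUV (-0.51, adjusted p = 0.0732) and library size scaling alone (-0.22, adjusted p = 0.0397). SOD2 (0.019, adjusted p = 0.964) and IL32 (0.062, adjusted p = 0.857) did not pass with RUV, nor did IL32 with the trends removed (adjusted p = 0.912). The 3 comparisons with vehicle share the same 3 control libraries, and their values are therefore set side by side without a measure of likeness.

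Whether the TNFα effect differed with E2 was tested as the interaction of E2 and TNFα, which again rests on the vehicle libraries. A negative value means that TNFα raised the gene less, or lowered it more, in cells with E2. SDC4 (log2 difference -2.08 ± 0.15, adjusted p = 1.04e-07) and TNFAIP2 (-1.57 ± 0.17, adjusted p = 2.62e-06) were called, against 31.8% of all tested genes (22.5% positive, 9.29% negative), and 8 of 10 passed at any size against 76.6% (39.0% positive, 37.6% negative). SAA1, C3, IER3, LCN2 and ICAM1 had negative values and SOD2 a positive one. IL32 (0.07, 95% interval -0.33 to 0.46) and CD83 (0.10, -0.33 to 0.54) did not pass. IL32 passed as positive at 0.92 with RUV (adjusted p = 0.0304), 1.13 with the trends removed (adjusted p = 6.17e-08) and 0.39 with library size scaling alone (adjusted p = 0.0264), and the last also passed CD83 (0.42, adjusted p = 0.0845). C3 (-0.36, adjusted p = 0.540) and IER3 (-0.30, adjusted p = 0.440) no longer passed with RUV. SDC4 lay between -2.21 and -1.76 and SAA1 between -1.52 and -0.69 under all alternatives run. TNFAIP2 kept its sign, at -0.80 with RUV and -0.87 with GC and length trends removed, and it was at -1.49 without E2+ TNFα replicate 2. ICAM1 turned to 0.20 with either correction, IER3 to 0.11 with the trends removed, and SOD2 to -0.01 with RUV. LCN2 turned to 0.73 with RUV (adjusted p = 0.188) and passed as positive with the trends removed (0.48, adjusted p = 0.0309).

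**Figure D4:**
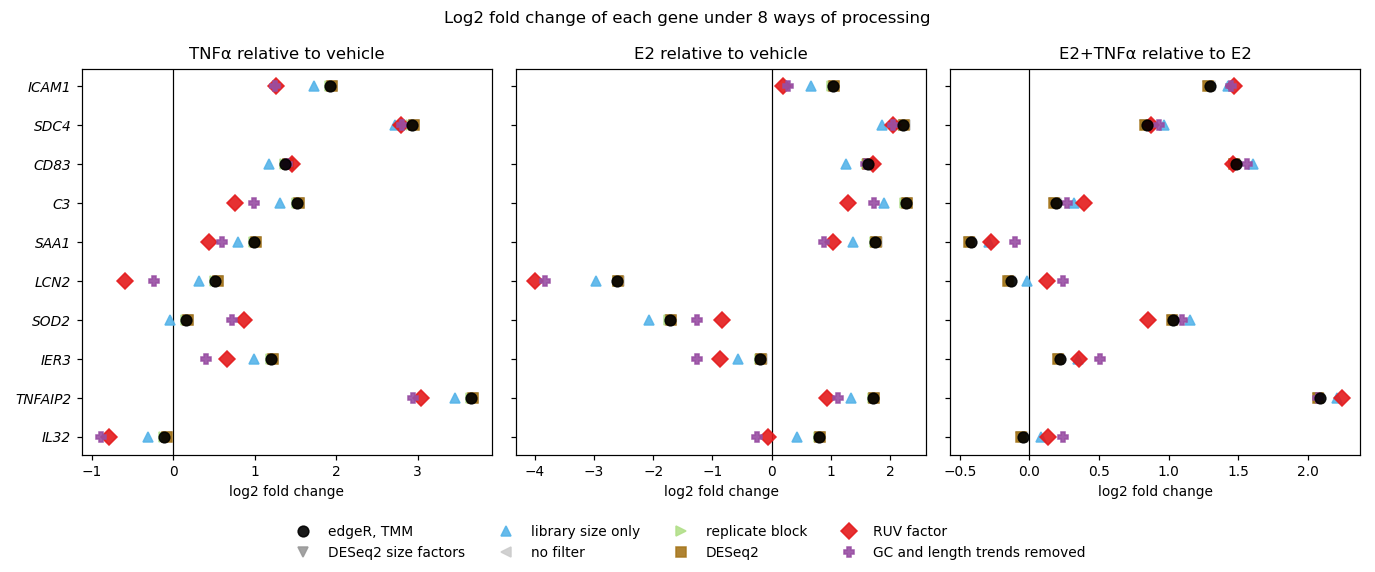
Log2 fold change of each gene under 8 ways of processing, for TNFα relative to vehicle, E2 relative to vehicle and E2+ TNFα relative to E2 (each symbol is 1 way of processing). In the comparisons with vehicle the values spread, as for LCN2 with TNFα from -0.60 to 0.55, while in E2+ TNFα relative to E2 those of TNFAIP2 stay between 2.07 and 2.24.

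Other genes of the pathway were taken from 3 lists chosen by role. Of 25 core components of NFκB signaling, 13 rose with TNFα in E2-treated cells at any size, 0 fell and 12 did not pass. Over all tested genes 2.65% rose and 3.34% fell at any size. The core genes called were 4, all upward, where 0.407% of all tested genes were called (0.389% upward). The largest were the adaptor TRAF1 (log2 fold change 2.97 ± 0.15), the deubiquitinase TNFAIP3, or A20 (2.57 ± 0.12), and the ubiquitin ligase BIRC3 (2.15 ± 0.35, with E2+ TNFα libraries from 49.1 to 191 CPM). The median of the list was 0.50, that of the 10 effector and acute-phase genes 0.53, and that of all tested genes 0.01. Of 16 tested acute-phase and complement genes, 4 rose, 0 fell and 12 did not pass, with PTX3, a pentraxin that binds microbes (2.23 ± 0.11), and the protease inhibitor SERPINA3 (1.60 ± 0.31) called. Of 29 other tested effectors and relatives, 4 rose, 0 fell and 25 did not pass, with the transcription factor IRF1 (2.05 ± 0.13, adjusted p = 7.12e-08) and the activation antigen CD69 (3.39 ± 1.00, adjusted p = 0.0811) called. CD69 had 0 counts in 2 of the 3 E2 libraries, and its fitted change is no measure of size.

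With E2 present, the lists taken whole did not move one way relative to TNFα alone. In E2+ TNFα relative to TNFα, 7 of 25 core genes were higher, 10 lower and 8 did not pass (24.4% higher and 21.0% lower over all tested genes), with a median of -0.05, compared with 0.04 over all tested genes and 0.24 over the 10 members. TRAF1 was lower (-0.99) and BIRC3 higher (3.44), but BIRC3 averaged 11.0 CPM with TNFα and 70.2 CPM in vehicle. Of the 16 acute-phase genes 4 were higher, 5 lower and 7 did not pass, and of the 29 effectors 8 were higher, 8 lower and 13 did not pass. SAA2, the near copy of SAA1, was lower (-0.80 ± 0.13), which was opposite to SAA1, and PTX3 was higher by 0.23. Among the genes named below as most raised by TNFα relative to vehicle, PLAU averaged 1073 CPM with TNFα and 268 CPM with E2+ TNFα. IRF1 averaged 378 and 122 CPM, CEBPD 131 and 49.3 CPM, and TRAF1 519 and 262 CPM in the same order. SERPINA3 (9.38 and 11.3 CPM), SLPI (1.42 and 2.36 CPM) and SOD3 (0.934 and 4.92 CPM) had means that went the other way, at low levels. The TNFα and E2+ TNFα libraries overlapped for SERPINA3 and SLPI but not for SOD3.

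With TNFα alone relative to vehicle, 18 of 25 core genes were higher and 6 lower at any size (40.3% and 41.6% over all tested genes), with TRAF1 at 3.84 ± 0.15, the IκB kinase subunit CHUK at -3.24 ± 0.34 and the ubiquitin ligase BIRC2 at -2.98 ± 0.23 the furthest from 0. Of the 16 acute-phase genes 9 were higher and 4 lower, led by SERPINA3 (5.32 ± 0.37), the transcription factor CEBPD (3.90 ± 0.21) and the protease inhibitor SLPI (3.39 ± 0.66), and of the 29 effectors 23 were higher and 3 lower, led by IRF1 (4.58 ± 0.14), the extracellular superoxide dismutase SOD3 (3.72 ± 0.58) and the plasminogen activator PLAU (2.80 ± 0.13). SERPINA3, SLPI and SOD3 had 1 to 18 counts in each vehicle library. CHUK averaged 33.4 CPM in vehicle, 3.48 with TNFα, 4.42 with E2 and 5.87 with E2+ TNFα. BIRC2 averaged 120, 15.3, 18.1 and 32.3 CPM in the same order. Both were thus low in every group but vehicle, with or without TNFα, and the vehicle libraries stood apart from the others. The 10 effector and acute-phase genes had a median of 1.29 here, compared with 0.81, 1.13 and 0.88 for the 3 lists and 0.01 for all tested genes.

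Across the 12 libraries, ICAM1 and TNFAIP2 were the pair of members most alike (Pearson r of log2 CPM = 0.988), followed by TNFAIP2 with SDC4 (0.953) and ICAM1 with SDC4 (0.946). C3 was most like SAA1 (0.929), and SOD2 was most like LCN2 (0.812). IL32 ran opposite to LCN2 (-0.909) and SOD2 (-0.868). The libraries share 4 treatments and differ in depth, so these values describe group patterns and carry no test.

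Among the tested genes outside the 10, the 3 nearest in pattern to each were taken by the same r over 12 libraries, with the same limits. For the surface proteins they were PLPP3 (0.978), SERPINA3 (0.977) and EFNA1 (0.973) for ICAM1, SH2B3 (0.987), INAVA (0.987) and IGFBP7 (0.985) for SDC4, and NLRP3 (0.977), SPRY4 (0.971) and UNC13A (0.964) for CD83. EFNA1, an ephrin ligand (0.995), SERPINA3 (0.980) and NFKBIA, which encodes IκBα (0.977), were nearest to TNFAIP2, so that EFNA1 and SERPINA3 appeared for both TNFAIP2 and ICAM1. C3 was followed by MYO18A (0.995), FHOD3 (0.993) and MGAT5B (0.990), SAA1 by NDUFB8 (0.998), KRT18 (0.997) and TMED9 (0.997), and LCN2 by CD82 (0.991), RHBDD1 (0.989) and EIF3C (0.983). IL1A, the cytokine interleukin 1α (0.984), NEDD4L (0.974) and ZNF697 (0.968) were nearest to SOD2, ADM2 (0.988), PISD (0.980) and PHGDH (0.980) to IER3, and C19orf47 (0.991), GPR132 (0.988) and HOMER3 (0.986) to IL32.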

How the data were processed

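The files hold RNA-seq counts for 12 libraries of MDA-MB-231-ERβ cells. The deposited counts are whole reads per gene, which featureCounts gave the authors after alignment to hg38 (TopHat2 2.1.0, per the labels) of stranded poly(A) libraries. They carry no normalization, and the RUVseq step that the study's methods name, as a correction of batch effects, is not in them. The 10 genes and the lists were chosen with earlier results of these data known. Repeated rows (46) and second symbols of 1 locus with identical counts (70) were left out. Replicates are dishes plated in triplicate, and p-values measure only the spread between dishes. Library depth was 7.65 to 39.9 M assigned reads (M, mega), and a chi-square per degree of freedom of 9.49 to 66.0 between replicates showed that counting error was the smaller part of their spread.

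Using edgeR 4.0.16 (R 4.3.3, limma 3.58.1), counts were TMM-normalized and compared by quasi-likelihood F tests in 1 fit of 4 group means over 11303 genes, with Benjamini-Hochberg adjustment over all of them. SEs were derived from the F statistic. Every member is named in each comparison. From each list, up to 3 called genes with the largest change are named in E2+ TNFα relative to E2 and in TNFα relative to vehicle. TRAF1, BIRC3, SAA2, PTX3, PLAU, IRF1, CEBPD, SERPINA3, SLPI and SOD3 are named again for E2+ TNFα and TNFα after their values were seen. The group levels of CHUK and BIRC2 were likewise added. For each member the 3 genes nearest by Pearson r are given. Alternatives were size factors of DESeq2, library size only, no filter, the replicate number as a block, 1 RUV factor from 20 housekeeping genes, removal of loess trends (span 0.3) with exon GC content and length, the same with the block, DESeq2 1.42.0, and each library left out in turn. Leaving the vehicle group out of the fit and counting SAA1 with SAA2 were added after the data had been seen. The steps were tested on simulated data. Copies were sought with BLAST 2.17.0 among GENCODE 44 transcripts (at least 200 bases at 90% identity).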

Additional observations from a re-analysis of the deposited data

Results flagged for a closer look

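For 8 of the 10 genes the TNFα effect with E2 differed from the TNFα effect without E2 by the interaction test of edgeR (adjusted p of at most 0.1), where 76.6% of all tested genes did. The log2 differences were -2.08 ± 0.15 (SE) for SDC4, -1.57 ± 0.17 for TNFAIP2, -1.41 ± 0.17 for SAA1, -1.32 ± 0.23 for C3, -0.98 ± 0.17 for IER3, -0.65 ± 0.26 for LCN2, -0.62 ± 0.19 for ICAM1 and 0.88 ± 0.20 for SOD2. The adjusted p ranged from 1.04e-07 for SDC4 to 0.0341 for LCN2. All of these values use the vehicle libraries, which stood apart from the others, and the part of that distance in them was not tested beyond the alternatives. With RUV, C3 (-0.36, adjusted p = 0.540), IER3 (-0.30, adjusted p = 0.440), ICAM1, LCN2 and SOD2 no longer passed. With GC and length trends removed ICAM1 and IER3 did not pass, and LCN2 passed with the opposite sign (0.48, adjusted p = 0.0309). LCN2 no longer passed without TNFα replicate 3, its highest library (-0.49, adjusted p = 0.103).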

How the results depend on the processing

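Of 1437 member values under alternatives, 1354 kept their direction and their side of the thresholds, 30 lost the call, 12 gained it and 41 turned in direction. Every turned value belonged to a comparison with vehicle, to the interaction, or to LCN2 and IL32 in E2+ TNFα relative to E2, and none belonged to E2+ TNFα relative to TNFα or E2 relative to TNFα. The cause was not tested, except that scaling by library size alone shifts the median of all genes, by -0.19 (TNFα), -0.38 (E2) and -0.26 (E2+ TNFα) relative to vehicle, -0.15 in E2 relative to TNFα, 0.13 in E2+ TNFα relative to E2 and 0.31 for the interaction.

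Library size alone turned SOD2 with TNFα (-0.047), IER3 with E2+ TNFα relative to vehicle (-0.22) and IL32 in E2+ TNFα relative to E2 (0.080). It called 4 members with E2, 2 in E2+ TNFα relative to E2 and 1 for the interaction. The RUV factor turned LCN2 with TNFα (-0.60), IL32 with E2 (-0.068), SOD2 and IER3 with E2+ TNFα relative to vehicle (0.019 and -0.51), LCN2 and IL32 in E2+ TNFα relative to E2 (both 0.13), and ICAM1, SOD2 and LCN2 in the interaction (0.20, -0.011 and 0.73). Members called with RUV were 2 (TNFα), 3 (E2) and 1 (interaction). Calls over all genes were 1182, 1679, 1339 and 1437 for TNFα, E2, E2+ TNFα and the interaction, where they had been 3016, 3447, 2837 and 3593. Removal of GC and length trends turned LCN2 with TNFα (-0.24), IL32 with E2 (-0.25), IER3 and IL32 with E2+ TNFα relative to vehicle (-0.75 and -0.0078), LCN2 and IL32 in E2+ TNFα relative to E2 (both 0.24), and ICAM1, LCN2 and IER3 in the interaction (0.20, 0.48 and 0.11). It called 1180, 1568, 1227 and 1553 genes, and 2 (TNFα), 4 (E2), 2 (E2+ TNFα relative to E2) and 1 (interaction) members. The share of called genes that were higher was 24.9%, 32.4%, 30% and 70.8%, against 35.3%, 50.5%, 50.6% and 62.6% with RUV, 46.7%, 52.6%, 56.5% and 55.2% with trends removed, and 16.4%, 17.4%, 20.0% and 83.9% with library size alone, which also gave 47.8% against 58.5% in E2 relative to TNFα. Without the vehicle libraries in the fit, 2 members were called in E2+ TNFα relative to E2 (36 genes in all).

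Replicate numbers did not pair the libraries: deviations from group means correlated at -0.54 to 0.52 (median -0.13) for 18 same-numbered pairs and with a median of 0.14 for 36 others. With the number as a replicate block, calls were 36 in E2+ TNFα relative to E2 against 46, no member gained or lost a call, and SAA1 there did not pass at any size (adjusted p = 0.158). With trends removed and the replicate block, 1187, 1564, 1239 and 1538 genes and 2, 4, 2 and 1 members were called, and the same values turned, at -0.25, -0.25, -0.75, -0.0079, 0.23, 0.24, 0.20, 0.48 and 0.11 in the order above. With each library left out, called genes in E2+ TNFα relative to E2 ranged from 32 to 84 (84 without E2 replicate 3), called members there from 1 to 2, and called members in the interaction from 1 to 2. IER3 with E2+ TNFα relative to vehicle ranged from -0.061 to 0.089, LCN2 in E2+ TNFα relative to E2 from -0.31 to 0.0025, and IL32 from -0.17 to 0.034 there and from -0.061 to 0.14 in the interaction. Depth limits LCN2, SOD2 and CD83 most, at 118 to 253 counts in E2 replicate 2.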
